A study of Mus musculus with 17 samples.

Results

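The genes described here are 43 genes of DNA replication and S phase, chosen by name from the 35321 gene symbols of a table of raw read counts. All 43 were in the table and all passed the filter on low counts, and they were grouped into 9 roles at the replication fork. The counts come from polyadenylated RNA of hematopoietic stem and progenitor cells (HSPC), immature bone marrow cells that give rise to blood, in 17 libraries. Wild-type C57BL/6J mice, an inbred strain, were injected into the peritoneum with phosphate-buffered saline (PBS), with lipopolysaccharide (LPS), a bacterial membrane component that sets off inflammation, or with LPS plus a blocking antibody against the receptor of interleukin-10 (IL-10R). The PBS group (titled as day 0) had 5 libraries, and LPS and LPS with antibody had 3 each at each of 2 times, 24 h and 72 h after injection. All mice were wild type and no group received the antibody without LPS. The labels give no age or sex, and they do not say whether each library is a separate mouse or a pool, so p-values measure only the spread between these libraries.

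Before a cell divides, the origin recognition complex, Cdc6 and Cdt1 load a ring of Mcm proteins onto DNA in G1 phase, a step called licensing. In S phase Cdc45, the GINS complex and Mcm10 turn that ring into an active helicase, primase and polymerase alpha lay down primers, and polymerases delta and epsilon copy the strands while held by the PCNA clamp, which the RFC complex loads. Ribonucleotide reductase makes the deoxynucleotides, Fen1 and Lig1 join the fragments of the lagging strand, and Chaf1a, Chaf1b and Uhrf1 carry histones and DNA methylation over to the new strands. Most of these genes are textbook targets of E2F transcription factors, whose activity rises when cells leave quiescence. Most hematopoietic stem cells are quiescent in undisturbed marrow, whereas progenitors divide often.

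Promoters of the genes were searched on both strands for 4 words of the E2F type: TTTCCCGC, TTTCGCGC, TTTGCCGC and TTTGGCGC. A stretch can hold matches to more than 1 word where they overlap. Windows ran from 250 bases before to 50 bases after the start sites of RefSeq (build GRCm38.p6), and 36 of the 43 genes had at least 1 window. At least 1 of the words was present in 16 of the 36 genes (44.4%), against 2.6% of the 27025 genes with a window. The word CCAAT, the site of another promoter factor, was present in 66.7% of the 36 and in 41.1% of all genes. The median GC content of the windows was 63% for the replication genes and 52.7% for all windows, and these shares were not adjusted for it. The 150 bases just before a RefSeq start site are printed for 5 genes with a match. For a gene with several windows, the first by position that held a match was used. Orc1, Cdc6 and Mcm6 are licensing genes, Rfc3 a clamp loader gene and Dtl an S-phase control gene. Rrm2, the gene with the largest increase at 24 h, is also printed and has no match in its window. Capitals mark the matches on either strand, and each line runs 5′ to 3′ on the strand of the gene.
Orc1: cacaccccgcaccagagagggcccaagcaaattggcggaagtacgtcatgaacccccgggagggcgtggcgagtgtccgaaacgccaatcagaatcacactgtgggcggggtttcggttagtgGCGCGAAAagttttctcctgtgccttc
Cdc6: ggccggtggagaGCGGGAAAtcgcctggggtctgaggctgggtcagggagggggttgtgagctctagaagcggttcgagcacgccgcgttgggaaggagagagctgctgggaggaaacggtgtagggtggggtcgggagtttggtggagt
Mcm6: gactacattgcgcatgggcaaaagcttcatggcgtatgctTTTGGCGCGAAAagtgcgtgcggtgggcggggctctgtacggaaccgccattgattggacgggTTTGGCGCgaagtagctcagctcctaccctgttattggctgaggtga
Rfc3: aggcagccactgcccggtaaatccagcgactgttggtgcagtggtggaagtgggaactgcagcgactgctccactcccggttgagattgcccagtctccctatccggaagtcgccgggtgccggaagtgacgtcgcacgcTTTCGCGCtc
Dtl: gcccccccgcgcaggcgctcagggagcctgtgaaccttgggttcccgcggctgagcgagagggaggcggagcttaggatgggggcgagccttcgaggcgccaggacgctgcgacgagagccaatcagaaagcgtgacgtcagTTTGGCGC
Rrm2: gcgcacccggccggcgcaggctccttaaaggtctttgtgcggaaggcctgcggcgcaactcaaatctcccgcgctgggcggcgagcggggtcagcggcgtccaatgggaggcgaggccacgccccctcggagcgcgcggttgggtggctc
The stretches lie at chr4:108579304-108579453 (Orc1, plus strand), chr11:98908001-98908150 (Cdc6, plus strand), chr1:128359706-128359855 (Mcm6, minus strand), chr5:151651209-151651358 (Rfc3, minus strand), chr1:191575545-191575694 (Dtl, minus strand) and chr12:24708104-24708253 (Rrm2, plus strand). The match of Orc1 began 27 bases before the RefSeq start site used, and those of Cdc6, Rfc3 and Dtl began 138, 10 and 8 bases before theirs. In the GENCODE M21 annotation Cdc6 begins at chr11:98907801, so its whole stretch lies inside the gene as drawn there. The matches of Orc1 and Rfc3 also lie inside the genes of that annotation, which begin at chr4:108579423 and chr5:151651242. Mcm6 had matches 110, 106 and 47 bases before its start, the first 2 of which overlap. Of the genes with a window, 10 of the 25 that rose with LPS at 24 h and 6 of the 11 that were not called there held a match. A match describes the letters of the window and does not show that a factor binds there.

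The libraries held 10516722 to 16006001 counts, and the lowest count of any of the 43 genes in any library was 140, for Orc1. LPS library 1 at 24 h stood apart from the other libraries in composition: its scaling factor by trimmed mean of M-values (TMM) was 0.799, against 0.947 to 1.12 elsewhere, and it had the fewest genes detected (16431). Counts of called genes without it are given where they change by more than 1.5 times. The cells carried Kit at 399 ± 60.8 CPM (counts of a gene per 1000000 counts of the scaled library; SD, n = 5) and Cd34 at 691 ± 77.3 CPM with PBS, both markers of HSPC. Markers of other cells were also present and moved between groups. The summed level of the 11 markers of monocytes and macrophages ranged from 412 to 2659 CPM with PBS and from 174 to 193 CPM with LPS at 24 h. The summed level of the 15 erythroid markers ranged from 280 to 3299 CPM across the libraries with LPS and antibody at 24 h and from 291 to 2034 CPM across those with LPS and antibody at 72 h, with the library numbered 3 lowest in both groups. Against PBS, LPS at 24 h gave 1 erythroid marker called higher and 1 lower of 15, 0 of 8 neutrophil markers, 3 of 10 B-lymphoid and 3 of 10 T and NK markers called lower, and 2 of 7 megakaryocyte markers called lower. In bulk RNA, fewer cells of a type and less RNA per cell cannot be told apart.

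Levels of the 43 genes differed widely within the PBS group. Per kilobase of exon, the PBS libraries held 160 ± 15.9 CPM of Pcna (SD, n = 5), the sliding clamp, which had the highest level. The Mcm genes Mcm6, Mcm3, Mcm7 and Mcm5 followed at 124, 111, 102 and 101 CPM per kilobase. Orc1, the largest subunit of the origin recognition complex, had the lowest level at 5.38 ± 0.65 CPM per kilobase. By this measure subunits of the same complex differed, since Mcm4 stood at 60.8 CPM per kilobase against 124 for Mcm6. The length used joins all annotated exons of a gene, so levels per kilobase and their order depend on the transcripts annotated.

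Averaged over the 43 genes, the level was 6.86 ± 0.10 log2 CPM with PBS (SD over libraries, n = 5), 7.31 ± 0.14 with LPS at 24 h (n = 3) and 6.92 ± 0.06 with LPS at 72 h (n = 3). With LPS and antibody it was 7.20 ± 0.16 at 24 h (n = 3) and 7.08 ± 0.17 at 72 h (n = 3). The 3 LPS libraries at 24 h, at 7.48, 7.27 and 7.20, all lay above the highest PBS library at 6.95. The LPS libraries at 72 h, at 6.85, 6.98 and 6.92, overlapped with PBS, whose lowest library was at 6.72. With antibody at 72 h the libraries stood at 6.93, 7.04 and 7.27, so that library 1 lay within the PBS range and library 3 near the 24 h groups.

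**Figure D1:**
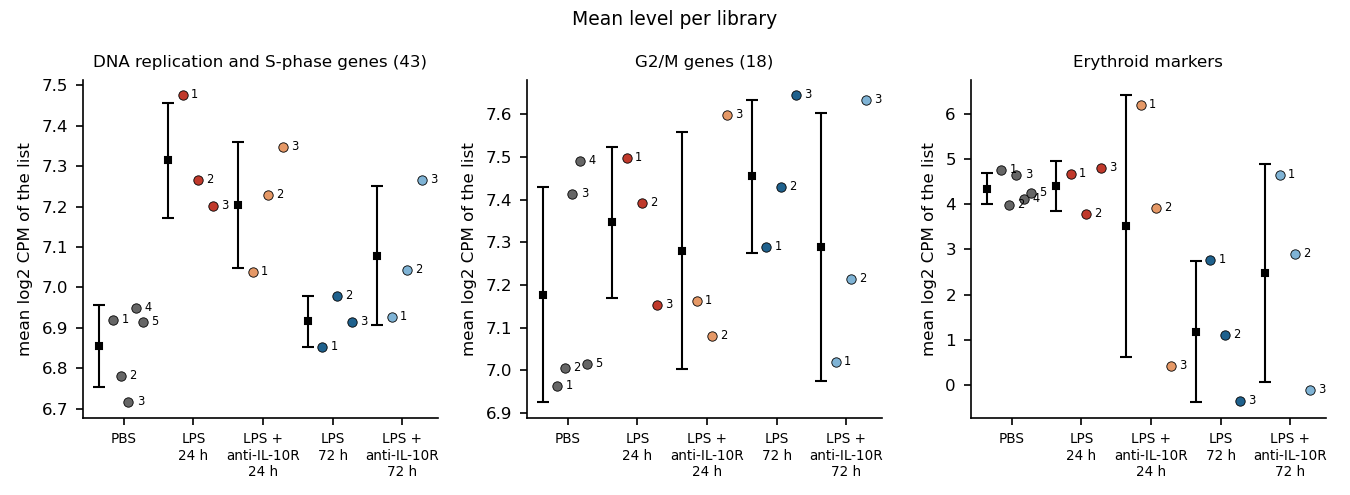
Mean log2 CPM per library of the 43 replication genes, of 18 genes of G2 and mitosis (G2/M) and of 15 erythroid markers, in the 5 groups. Points are libraries with their numbers, and the square with bars beside them is the group mean ± SD. The replication genes are above the PBS libraries in every LPS library at 24 h, whereas the G2/M genes overlap between groups and the erythroid markers spread widely in the groups with antibody.

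At 24 h after LPS, genes of licensing, helicase activation and nucleotide supply were among those with more RNA than with PBS, and with all libraries in the fit each of the 9 roles had at least 1 called gene (8 roles without LPS library 1). Of the 43 genes, 28 were called higher and 0 lower than with PBS (edgeR quasi-likelihood test, adjusted p below 0.05 over 14920 genes), where 19.1% of all tested genes were called higher and 18.5% lower. The median log2 change was 0.45 for the 43 genes and -0.03 for all tested genes. The change was positive for 42 genes and ran from -0.09 for Pole, the catalytic subunit of polymerase epsilon, which was not called, to 1.06 for Rrm2. All 3 LPS libraries lay above all 5 PBS libraries for 30 of the 43 genes, and groups did not overlap for 42.8% of all tested genes in either direction. Markers of HSPC also moved: 7 of the 12 tested were called lower at 24 h, their summed level being 1188 to 1329 CPM, where PBS libraries had 1804 to 2641 CPM, and 9 of 11 monocyte and macrophage markers were called lower. Their part in the change of the replication genes was not tested.

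Without LPS library 1 at 24 h, 18 genes were called, all of them among the 28. By role, 8 of 10 licensing genes were then called, 2 of 5 helicase activation genes (4 with all libraries), 1 gene of polymerases delta and epsilon (2 with all), 1 of strand joining and single-strand binding (2 with all) and 0 of the 4 genes of chromatin behind the fork (3 with all). That last role therefore has no called gene without this library, and it had 1 when any one of PBS libraries 2, 3 and 4 and LPS library 2 was left out. Polymerases delta and epsilon had 1 called gene when any one of PBS libraries 1 to 4 was left out, and strand joining and single-strand binding 1 without PBS library 2 or 3. Of the markers, 6 of HSPC, 7 of monocytes and macrophages, 1 B-lymphoid, 2 T and NK and 0 megakaryocyte markers were called lower without LPS library 1. Deviations of same-numbered libraries of these 2 groups from their group means had low positive correlations (0.19, 0.19 and 0.16). In a fit blocked on that number 26 genes were called. There Mcm6, Gins4, Pold3 and Chaf1b were no longer called, and Pole2 and Rpa1 were added.

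**Figure D2:**
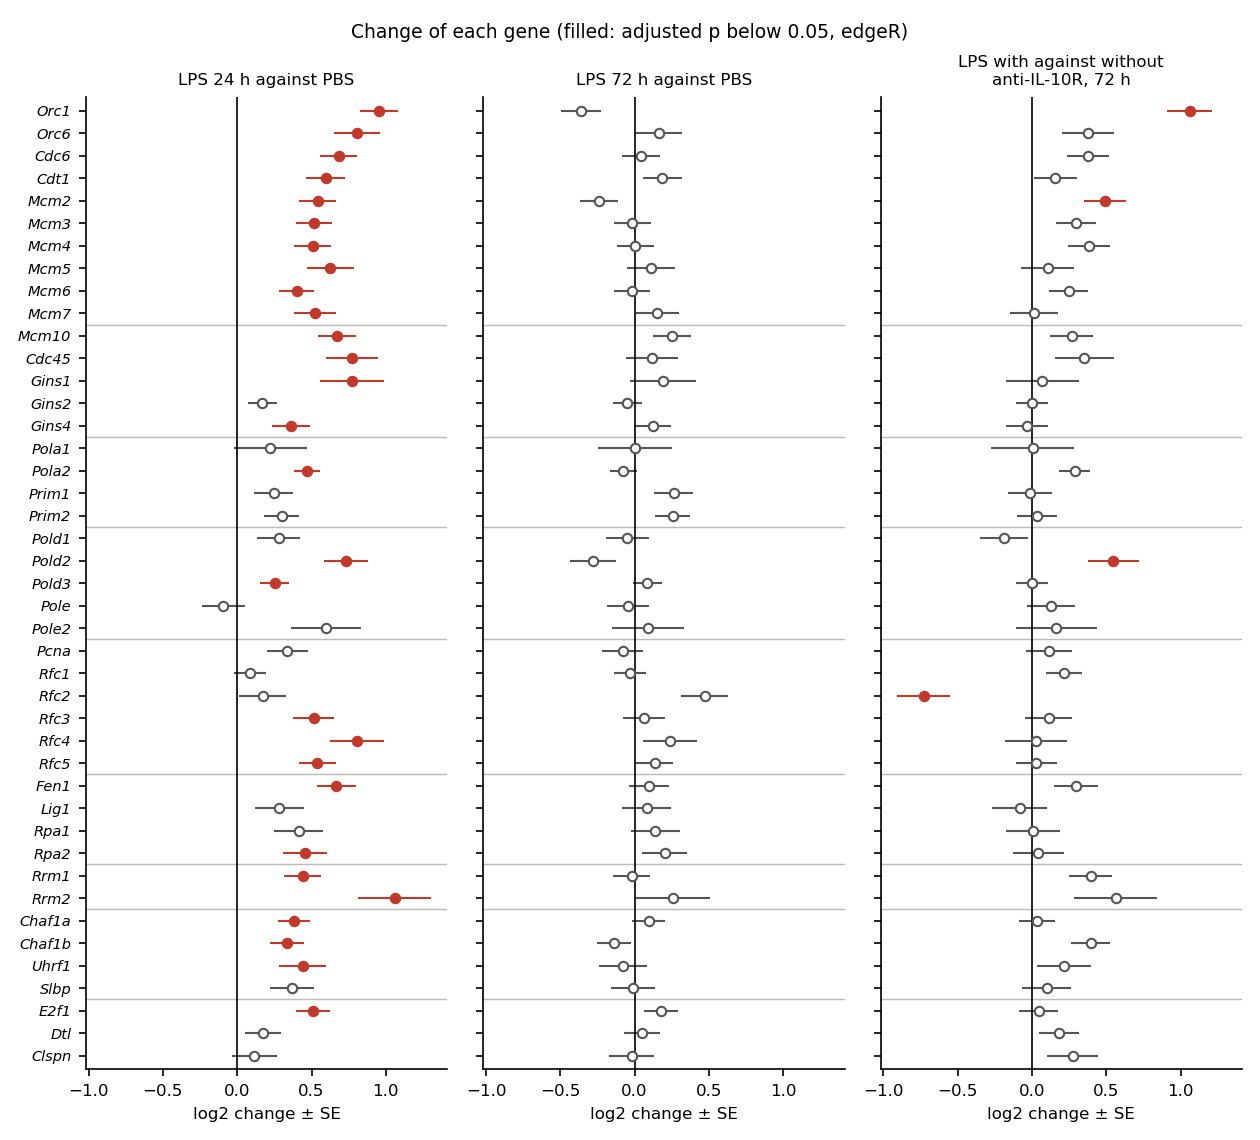
Log2 change ± SE of each of the 43 genes for LPS at 24 h against PBS, LPS at 72 h against PBS, and LPS with against without antibody at 72 h, with roles separated by grey lines. Filled points have an edgeR adjusted p below 0.05. The left panel has 28 filled points, all to the right of 0, the middle panel has 0, and the right panel has 4 (Orc1, Mcm2, Pold2 and Rfc2).

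Every licensing gene was called with all libraries in the fit. All 10 (Orc1, Orc6, Cdc6, Cdt1 and Mcm2 to Mcm7) were higher with LPS at 24 h, with a median log2 change of 0.57, and all but Mcm6 and Mcm7 were also called without LPS library 1. Orc1 stood at 21.8, 16.1, 17.6, 20.2 and 17.8 CPM in the PBS libraries and at 37.5, 31.7 and 39.4 CPM in the LPS libraries at 24 h. Each LPS library exceeded the highest PBS library, and the change was 1.93-fold, a log2 change of 0.95 (adjusted p = 0.000434 by edgeR, SE 0.13). Mcm2, a subunit of the helicase ring, stood at 334, 278, 263, 319 and 312 CPM with PBS and at 408, 458 and 451 CPM with LPS at 24 h. Those groups did not overlap either, and the log2 change was 0.54 (adjusted p = 0.00398 by edgeR, SE 0.12). Orc6, the smallest subunit of the origin recognition complex, and Cdc6, a loading factor, rose by a log2 change of 0.81 and 0.68 (edgeR adjusted p = 0.00142 and 0.00111). Cdt1, which brings the Mcm ring to the origin, rose by 0.60 (edgeR adjusted p = 0.00291). The other Mcm genes rose by 0.40 (Mcm6) to 0.63 (Mcm5).

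Of the 5 genes that activate the helicase, 4 were called higher, of which Gins1 and Gins4 were not called without LPS library 1. Cdc45 stood at 70.3, 54.3, 66.7, 79.1 and 55.5 CPM with PBS and at 144, 87.8 and 103 CPM with LPS at 24 h, and all LPS values were above all PBS values. Its log2 change was 0.77 (adjusted p = 0.00351 by edgeR, SE 0.17). Gins1 and Mcm10 rose by 0.77 and 0.67 on the log2 scale. The remaining GINS gene, Gins2, had a log2 change of 0.17 (adjusted p = 0.183 by edgeR, SE 0.10) and was not called. Exons of Gins2 share 67.3% of their bases with Gse1 on the opposite strand, Chaf1a shares 52.5% with Ubxn6 and Fen1 shares 78.8% with Gm10143. The use of strand in the counting is not stated in the sources used here, so reads of these pairs cannot be told apart.

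Genes of the polymerases were called less completely. Among primase and polymerase alpha, Pola2 alone of 4 genes was called: it stood at 114, 97.8, 102, 109 and 114 CPM with PBS and at 161, 137 and 149 CPM with LPS at 24 h. No LPS value reached down to the PBS values, and the log2 change was 0.47 (adjusted p = 0.00135 by edgeR, SE 0.09). The catalytic subunit gene Pola1 had a log2 change of 0.22 (adjusted p = 0.5 by edgeR, SE 0.25). Of the 5 genes of polymerases delta and epsilon, Pold2 and Pold3 were called higher. Pold2, the second subunit of polymerase delta, stood at 107, 87.8, 76.6, 87.3 and 87.0 CPM with PBS and at 177, 132 and 134 CPM with LPS at 24 h. LPS library 1 was the highest and all 3 were above PBS, with a log2 change of 0.73 (adjusted p = 0.00198 by edgeR, SE 0.15). Pold3 had the smallest change among the called genes, 0.25 (adjusted p = 0.0488 by edgeR, SE 0.10), followed by Chaf1b (0.33) and Gins4 (0.36). The catalytic subunit genes Pold1 and Pole had log2 changes of 0.28 and -0.09 and were not called (edgeR adjusted p = 0.137 and 0.633).

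The clamp and its loader were split. Rfc3, Rfc4 and Rfc5 were called higher, whereas Pcna, Rfc1 and Rfc2 were not. Rfc4 stood at 49.9, 43.1, 37.9, 53.2 and 44.4 CPM with PBS and at 106, 67.2 and 66.5 CPM with LPS at 24 h. Library 1 was far above the other 2 LPS libraries, which themselves lay above PBS, and the log2 change was 0.80 (adjusted p = 0.00366 by edgeR, SE 0.18). Rfc4 shares 12.7% of its exon bases with Eif4a2 on the opposite strand, which stood at 336, 244 and 310 CPM with LPS at 24 h. Eif4a2 had a log2 change of 0.10 (adjusted p = 0.547 by edgeR, SE 0.12). Rfc5 shares 10.7% with Wsb2. Whether reads of these partners were counted for Rfc4 or Rfc5 was not tested. Pcna stood at 372, 395, 327, 394 and 432 CPM with PBS and at 529, 472 and 454 CPM with LPS at 24 h. These groups did not overlap, yet the log2 change of 0.34 (adjusted p = 0.0631 by edgeR, SE 0.14) missed the threshold. Rfc1, the large subunit of the loader, had a log2 change of 0.09 (adjusted p = 0.54 by edgeR, SE 0.11).

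Downstream of synthesis, Fen1 and Rpa2 were called among the 4 genes of strand joining and single-strand binding. Fen1, the nuclease that trims flaps of lagging-strand fragments, stood at 138, 129, 124, 153 and 122 CPM with PBS and at 260.5, 209.9 and 163 CPM with LPS at 24 h. All LPS values were above PBS, library 1 most, and the log2 change was 0.67 (adjusted p = 0.00168 by edgeR, SE 0.13). The antisense gene Gm10143 that overlaps Fen1 had a log2 change of 0.70 (adjusted p = 0.00146 by edgeR, SE 0.13). Lig1, the ligase, had a log2 change of 0.28 (adjusted p = 0.187 by edgeR, SE 0.16) and was not called.

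Both genes of ribonucleotide reductase rose. Rrm2, the subunit whose supply limits the enzyme in S phase, stood at 216, 159.9, 144, 172 and 131 CPM with PBS and at 429.5, 311 and 288 CPM with LPS at 24 h. The groups did not overlap, and the change was 2.08-fold, a log2 change of 1.06 (adjusted p = 0.00408 by edgeR, SE 0.24). Rrm1, the large subunit, rose by 0.44 (edgeR adjusted p = 0.0128). Of the 4 genes of chromatin behind the fork, Chaf1a, Chaf1b and Uhrf1 were called, and none of these without LPS library 1. Uhrf1, which guides maintenance DNA methylation, stood at 321, 306, 271, 316 and 345 CPM with PBS and at 412, 441 and 415 CPM with LPS at 24 h. The 3 LPS values were close together and above PBS, with a log2 change of 0.44 (adjusted p = 0.0386 by edgeR, SE 0.16). Slbp, the histone mRNA binding protein, had a log2 change of 0.37 (adjusted p = 0.0591 by edgeR, SE 0.15).

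Of the S-phase control genes, E2f1, an activating E2F factor, was called. It stood at 50.1, 46.1, 40.6, 52.0 and 52.9 CPM with PBS and at 81.8, 63.8 and 61.3 CPM with LPS at 24 h, again without overlap. Its log2 change was 0.51 (adjusted p = 0.00369 by edgeR, SE 0.12). Clspn, which carries the checkpoint signal at stalled forks, stood at 74.8, 74.2, 86.5, 79.0 and 93.9 CPM with PBS and at 71.2, 108 and 86.6 CPM with LPS at 24 h. LPS library 1 was below every PBS library, library 2 above every one, and the log2 change was 0.12 (adjusted p = 0.577 by edgeR, SE 0.15). Dtl, a subunit of the ligase that degrades Cdt1, had a log2 change of 0.17 (adjusted p = 0.268 by edgeR, SE 0.12).

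**Figure D3:**
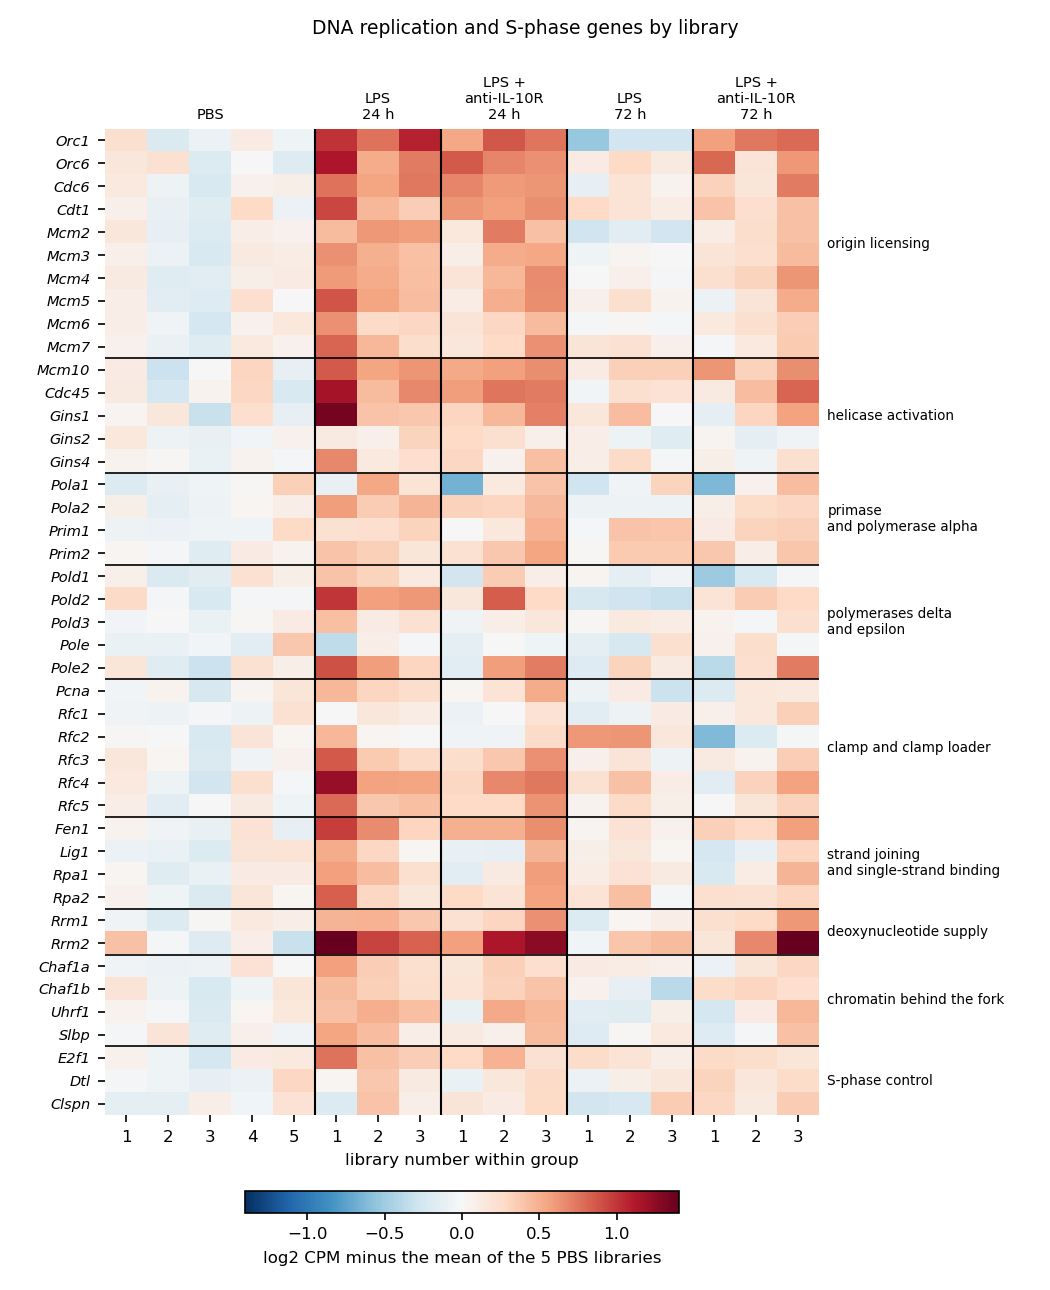
Log2 CPM of each of the 43 genes in each of the 17 libraries, minus the mean of the 5 PBS libraries for that gene, ordered by role. Red is above and blue below the PBS mean, with the colour scale ending at 1.4 in either direction. Library 1 with LPS at 24 h and libraries 3 with antibody have the deepest red in most rows, and Rfc2 is red with LPS at 72 h and blue with antibody at 72 h.

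At 24 h with LPS and antibody, the called replication genes were higher than with PBS, as with LPS alone. Of the 43 genes, 18 were called higher and 0 lower against PBS, where 11.7% of all genes were called higher and 12.5% lower, and the median log2 change was 0.36 (all genes -0.001). The called genes included 7 of the 10 licensing genes and both reductase genes, and no gene of chromatin behind the fork or S-phase control. Rrm2, Orc6 and Orc1 had the largest log2 changes among them (1.00, 0.73 and 0.72), and Pola2, the primase subunit gene Prim2 and Rrm1 the smallest (0.36, 0.38 and 0.39). Orc1 stood at 27.1, 34.0 and 31.3 CPM in the libraries with antibody, all above PBS, with a log2 change of 0.72 (adjusted p = 0.00414 by edgeR, SE 0.13). All libraries lay above all PBS libraries for 22 genes, where groups did not overlap for 31% of all genes in either direction. The number of genes called was 7 without library 2 of this group and 11 without PBS library 2. Without library 2 of this group, 4 licensing genes and 0 reductase genes were called. Markers moved as well: 6 of 12 HSPC markers (summed level 1277 to 1601 CPM), 7 of 11 monocyte and macrophage markers and 5 of 7 megakaryocyte markers were called lower than with PBS. Those counts were 1, 2 and 0 without library 2 of this group. Another HSPC marker, Ly6a, was called higher with all libraries in the fit, and was not called without PBS library 2, 3, 4 or 5. The part of these markers in the change of the replication genes was not tested.

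Antibody against none at 24 h gave 0 called genes among the 43 and among all 14920 (edgeR), a share of 0%. Before adjustment, at p below 0.05, 0 of the 43 and 1.83% of all genes passed, and DESeq2 and limma also called 0 of the 43. The median log2 change of the 43 was -0.11. The values of Mcm2 with antibody, 333, 495 and 399.8 CPM, spanned the range with LPS alone. Rrm2 at 242, 355 and 388 CPM and Pcna at 389.8, 436 and 546 CPM overlapped with LPS alone too. Both 24 h groups share the PBS controls, and the difference between their numbers of calls was not tested.

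At 72 h after LPS alone, 0 of the 43 genes were called against PBS (edgeR), where 0.0201% of all genes were called, all of them higher. Before adjustment, at p below 0.05, 3 of the 43 (Orc1, Prim2 and Rfc2) and 11.4% of all genes passed, and DESeq2 called 0 and limma with quality weights 2 (Rfc2 and Rpa2). The median log2 change was 0.08. Separation of all LPS libraries from all PBS libraries was seen for 2 of the 43 (Orc1 and Pold2, both lower with LPS) and for 12% of all genes. Orc1 stood at 12.8, 15.4 and 15.5 CPM, below every PBS library, with a log2 change of -0.36 (adjusted p = 0.345 by edgeR, SE 0.13). Pold2 stood at 75.8, 72.7 and 71.4 CPM, also below every PBS library, and Mcm2 at 247, 268 and 249.6 CPM, with libraries 1 and 3 below PBS. Neither was called. Erythroid markers had a summed level of 173 to 473 CPM in these libraries, against 623 to 1007 CPM with PBS. Slc4a1, Hba-a1, Hba-a2 and Hbb-bs were at 0 in 2 to 4 of the 17 libraries. Monocyte and macrophage markers had a mean of 2.95 to 3.33 log2 CPM, against 4.82 to 7.39 with PBS. Their summed levels overlapped, at 318 to 519 CPM against 412 to 2659 CPM. In this comparison 0 markers of any cell type were called (edgeR).

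Between 24 h and 72 h after LPS alone, 21 of the 43 genes were called lower and 0 higher, where 16.4% of all genes were called lower and 14.7% higher. The median log2 change was -0.42 (all genes 0.02), and 27 of the 43 had libraries of one time all on one side of those of the other, as had 45.4% of all genes. Orc1 fell from 36.2 ± 3.99 CPM to 14.6 ± 1.51 CPM (SD, n = 3), with a log2 change of -1.31 (adjusted p = 0.000149 by edgeR, SE 0.15). Pold2 fell from 148 ± 25.5 CPM to 73.3 ± 2.26 CPM, a log2 change of -1.01 (adjusted p = 0.000654 by edgeR, SE 0.17). Rrm2 stood at 158, 213 and 219.7 CPM at 72 h, all below the values at 24 h, with a log2 change of -0.80 (adjusted p = 0.0405 by edgeR, SE 0.28). By role, 9 of 10 licensing genes, 2 of 5 helicase activation genes, 3 of 6 clamp and loader genes and both reductase genes were called. The smallest called changes were -0.40 for Rfc5, -0.41 for Cdt1 and -0.42 for Mcm10. The number called was 8 without LPS library 1 at 24 h and 10 without LPS library 1 at 72 h. Without the first of these, 5 licensing genes were called and 0 of the helicase activation, clamp and loader and reductase genes, and without the second 6 and again 0. The reductase genes also had 0 calls without LPS library 2 at 24 h, and the clamp and loader genes 0 without LPS library 3 at 72 h. Called higher at 72 h than at 24 h were 6 of 12 HSPC, 3 of 10 T and NK, 2 of 11 monocyte and macrophage and 2 of 10 B-lymphoid markers. Leaving out 1 library at a time gave 4 to 6, 0 to 4, 1 to 2 and 0 to 3 of them. Of the 15 erythroid markers 4 were called lower, and 1 to 4 with 1 library left out (1 without LPS library 1 at 24 h). The HSPC markers summed to 1850 to 2468 CPM at 72 h, and all 15 erythroid markers had a negative log2 change, with a median of -2.82. Their part in the change of the replication genes was not tested.

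With LPS and antibody, 0 of the 43 genes and 0% of all genes were called between 24 h and 72 h (edgeR). Before adjustment, at p below 0.05, 1 of the 43 (Gins2) and 4.26% of all genes passed, and DESeq2 and limma called 0 of the 43. The median log2 change was -0.15. Orc1 stood at 27.1, 34.0 and 31.3 CPM at 24 h and at 27.8, 31.2 and 32.3 CPM at 72 h, with overlap, a log2 change of -0.02 (adjusted p = 0.989 by edgeR, SE 0.15). Rrm2 at 183, 258 and 432 CPM overlapped with its 24 h values.

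Against PBS, LPS with antibody at 72 h gave 6 genes called higher and 0 lower, where 6.81% of all genes were called higher and 6.43% lower. They were Orc1, Orc6, Cdc6, Mcm4, Mcm10 and Rrm2, with log2 changes of 0.70, 0.54, 0.42, 0.39, 0.52 and 0.82. Orc1 had the smallest edgeR adjusted p of these, 0.00791. Libraries lay above all PBS libraries for 10 genes, where groups did not overlap for 26.9% of all genes in either direction. The number called was 3 without PBS library 2, 2 without PBS library 3, 2 without PBS library 5, 3 without library 1 of the group with antibody and 1 (Orc1) without its library 3. Library 3 was the highest of its group for 35 of the 43 genes, and library 1 the lowest for 27. Called lower than with PBS were 5 of 10 T and NK markers, 2 of 12 HSPC markers and 2 of 11 monocyte and macrophage markers, and 0 of each without library 3. Without library 2 of the group with antibody, 5 HSPC markers were called lower. The HSPC marker Ly6a was called higher without library 2 or library 3 of that group, and was not called with all libraries. The part of these markers was not tested.

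At 72 h the groups with and without antibody differed at 4 of the 43 genes. Orc1, Mcm2 and Pold2 were called higher with antibody and Rfc2 lower, where 8.64% of all genes were called higher and 6.48% lower. In both directions the share of the 43 genes called was below that of all genes. The median log2 difference was 0.13 for the 43 genes and 0.01 for all genes. Orc1 stood at 12.8, 15.4 and 15.5 CPM with LPS alone and at 27.8, 31.2 and 32.3 CPM with antibody. The groups were far from overlap, the difference being 2.09-fold, a log2 change of 1.06 (adjusted p = 0.00122 by edgeR, SE 0.15). Mcm2 stood at 247, 268 and 249.6 CPM with LPS alone and at 324, 356 and 397 CPM with antibody, without overlap, a log2 change of 0.49 (adjusted p = 0.0299 by edgeR, SE 0.14). Pold2 stood at 75.8, 72.7 and 71.4 CPM and 101, 113 and 107 CPM, without overlap, a log2 change of 0.55 (adjusted p = 0.0411 by edgeR, SE 0.17). In the antibody group Orc1 lay above every PBS library, whereas Mcm2 and Pold2 overlapped with PBS.

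Rfc2, a small subunit of the clamp loader, stood at 306, 309.7 and 226 CPM with LPS alone and at 131, 176 and 199.6 CPM with antibody. LPS libraries 1 and 2 were the highest of all 17 and library 3 lay above the antibody group, with a log2 change of -0.73 (adjusted p = 0.0145 by edgeR, SE 0.18). The PBS libraries, at 174 to 228 CPM, overlapped with both groups. Exons of Rfc2 share 952 bases, 15.1% of its exon bases, with Lat2, an adaptor gene of hematopoietic cells on the opposite strand, chosen for mention after its values were seen. Lat2 stood at 142, 128 and 100.1 CPM with LPS alone at 72 h and at 41.5, 51.2 and 55.2 CPM with antibody, so it was lower with antibody as Rfc2 was, with a log2 change of -1.32 (adjusted p = 0.00122 by edgeR, SE 0.15). With LPS at 24 h Lat2 was at 50.9, 51.0 and 49.1 CPM, and with PBS at 61.6, 75.0, 52.9, 66.4 and 66.0 CPM. Whether reads of Lat2 were counted for Rfc2 was not tested. Orc1 shares 376 bases (10.8%) with the antisense transcript Gm12743, which had a log2 change with antibody at 72 h of 1.06 (adjusted p = 0.00409 by edgeR, SE 0.20) and stayed below 7 CPM in every library.

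Of these 4 calls, Orc1 was called whichever single library was left out. The number of genes called was 1 (Orc1) without LPS library 1 at 72 h, 1 (Orc1) without LPS library 2 at 72 h and 2 (Orc1 and Rfc2) without antibody library 3 at 72 h. Non-overlap between the groups was seen for 12 of the 43 genes, a share below the 33.2% of all genes. Other genes with non-overlapping groups that missed the threshold included Pola2, at 102, 102 and 102 against 114, 128 and 131 CPM, a log2 change of 0.29 (adjusted p = 0.0673 by edgeR, SE 0.10). Chaf1b, a chromatin assembly subunit, stood at 77.4, 68.8 and 57.2 against 88.7, 91.4 and 87.3 CPM, a log2 change of 0.40 (adjusted p = 0.0512 by edgeR, SE 0.13). Of the markers, 1 of HSPC (Cd34), 2 of monocytes and macrophages, 1 B-lymphoid (Cd22) and 1 T and NK (Klrb1c) were called lower with antibody. Leaving out 1 library at a time gave 0 to 2, 0 to 1, 0 to 1 and 0 to 2 of them. The erythroid markers were called higher with antibody for 1 of 15 genes, and for 0 to 1 with 1 library left out. Their summed level was 291 to 2034 CPM with antibody against 173 to 473 CPM without. Their part in these differences was not tested.

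**Figure D4:**
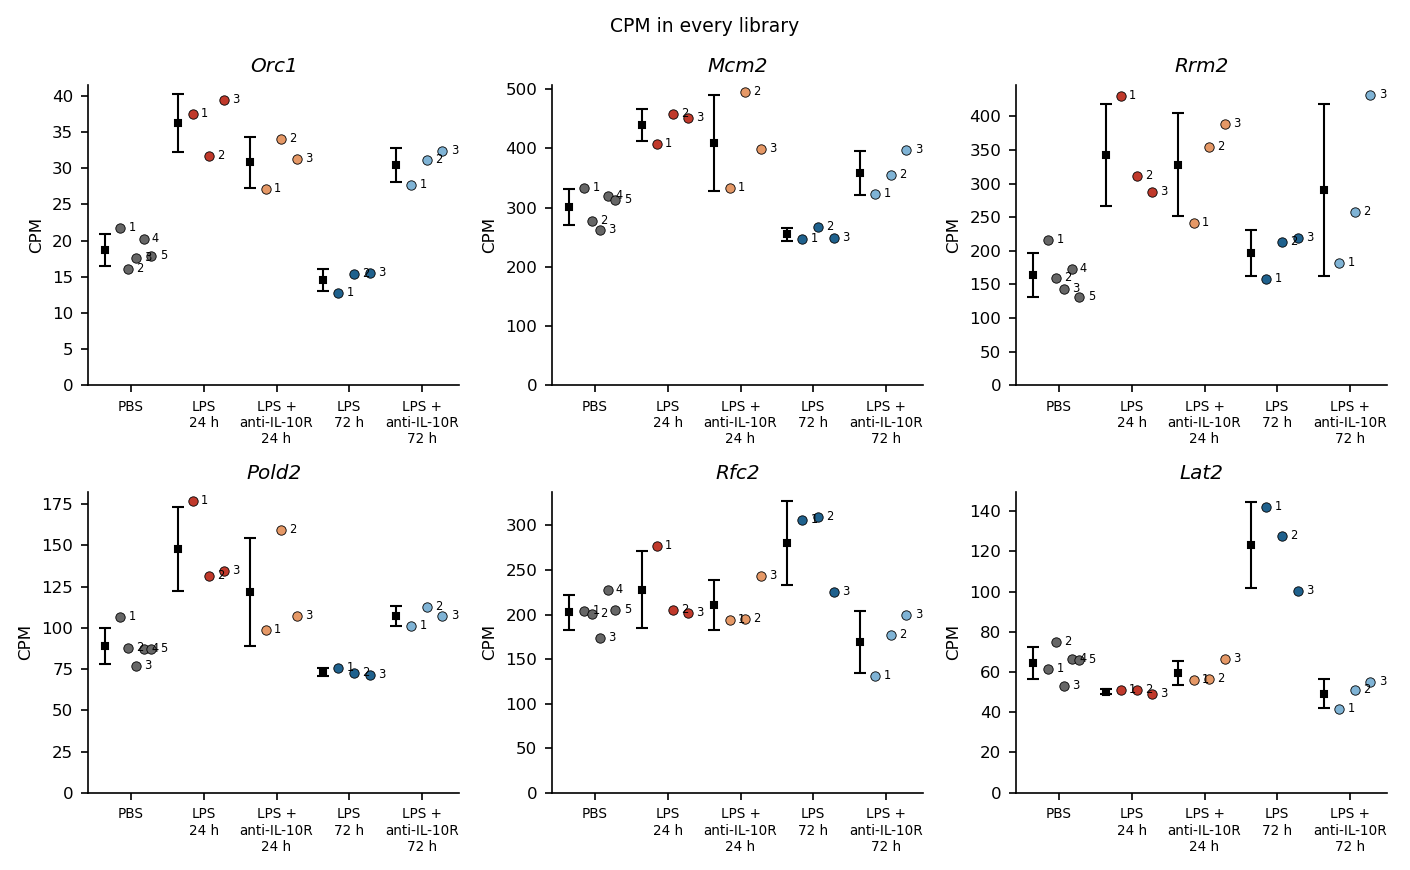
CPM in every library of Orc1, Mcm2, Rrm2, Pold2 and Rfc2, and of Lat2, which overlaps Rfc2 on the opposite strand. Points are libraries with their numbers, and the square with bars is the group mean ± SD. Orc1 at 72 h is 12.8 to 15.5 CPM with LPS alone and 27.8 to 32.3 CPM with antibody, and Rfc2 and Lat2 are both higher with LPS alone than with antibody at 72 h.

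Of all genes, 4.03% were called with a positive difference between the antibody effects at 72 h and 24 h, and 2.32% with a negative one (edgeR interaction test). Of the 43 genes 1 was called, Orc1, a share below that of all genes. Its log2 change with against without antibody was -0.23 at 24 h and 1.06 at 72 h, and the difference was 1.29 (adjusted p = 0.00831 by edgeR, SE 0.21). Pold2 had the next largest difference, 0.83 (adjusted p = 0.0509 by edgeR, SE 0.24), and Mcm2 had 0.59 (adjusted p = 0.0851 by edgeR, SE 0.20). Without LPS library 2 at 24 h 2 genes were called (Orc1 and Pold2), and without antibody library 2 at 24 h 3 were (Orc1, Mcm2 and Pold2).

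The 43 genes did not move as a single block from library to library. Across the 17 libraries, deviations from the group means had a mean pairwise correlation of 0.393, given as a description since all genes share library, depth and scaling. The genes most like the rest were Mcm5 (mean correlation 0.60), Pole2 (0.59) and Mcm4 (0.59). Pole, Gins2 and Clspn had mean correlations of -0.16, -0.14 and -0.09. In the LPS group at 24 h library 1 was the highest for 32 genes, and with antibody at 24 h library 3 was the highest for 31. LPS library 2 at 72 h was the highest of its group for 26 genes.

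Other genes of the same process, listed by function, were also examined at 24 h, where 19.1% of all genes were called higher and 18.5% lower. Of 33 other replisome and origin genes, 16 were called higher with LPS at 24 h and 1 lower, with a median log2 change of 0.38. Orc2, another origin recognition subunit, had a log2 change of 0.99 (adjusted p = 0.000314 by edgeR, SE 0.11), Recql4, a helicase of origin firing, 0.91, and Tipin, of the fork protection complex, 0.77. Gmnn, the inhibitor of Cdt1, had 0.76. The gene called lower was Pold4, the small subunit of polymerase delta (-0.48), which was not called when any one of the LPS libraries or of PBS libraries 1, 2 and 4 was left out. Of 12 other nucleotide supply genes, 8 were called higher and 1 lower, among them Dut with 1.09, Nme1 with 1.20, Shmt1 with 0.83 and Tk1 with 0.52. Of 12 other chromatin replication genes, 6 were called higher and 0 lower, led by the histone chaperones Asf1a (0.79) and Nasp (0.89) and the histone acetyltransferase Hat1 (1.04). Of 18 fork checkpoint and repair genes, 5 were called higher and 0 lower, and 4 to 6 higher with 1 library left out. Without LPS library 1, 9 replisome and origin genes (Orc2, Recql4, Tipin and Gmnn among them), 3 nucleotide supply genes (Dut, Nme1 and Shmt1) and 5 chromatin replication genes were called higher. Nucleotide supply had 5 without PBS library 3.

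Of 27 regulators of entry into S phase, 7 were called higher and 6 lower at 24 h, shares near those of all genes, and their median log2 change was -0.01. Without LPS library 1, 5 were called higher and 0 lower, and without LPS library 3, 3 were called lower. Ccne1, the cyclin that starts S phase, ranged from 10.7 to 22.7 CPM with PBS and from 33.4 to 52.6 CPM with LPS at 24 h. The groups did not overlap, and its log2 change was 1.42 (adjusted p = 0.000666 by edgeR, SE 0.23). Ccne2 had 0.96, E2f4, a mainly repressive E2F factor, 0.91, and the E2F partner Tfdp1 0.64. The 6 called lower were the inhibitors Cdkn1b, Cdkn1c and Cdkn2c and the genes E2f2, Tfdp2 and Rbl2. Genes of G2 and mitosis were called higher for 2 of 18 (Birc5 with 0.69 and Bub1 with 0.55), with a median of 0.19. The count was 0 when any one of LPS library 1 and PBS libraries 1, 2 and 5 was left out, and 4 without PBS library 4. Ccna2, the cyclin of S phase and G2, had a log2 change of 0.50 (adjusted p = 0.0266 by edgeR, SE 0.17) and was not called without LPS library 1, LPS library 2 or PBS library 2. Mki67, a marker of cycling cells, stood at 827 ± 156 CPM with PBS (SD, n = 5) and at 625 ± 146 CPM with LPS at 24 h (SD, n = 3), a log2 change of -0.41 (adjusted p = 0.164 by edgeR, SE 0.22). Top2a, the topoisomerase of replication and mitosis, had a log2 change of -0.02 (adjusted p = 0.947 by edgeR, SE 0.18). The difference between replication and mitosis genes was not tested.

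At 72 h, where 8.64% of all genes were higher and 6.48% lower with antibody, these lists gave 5 genes called higher and 1 lower of 33 replisome and origin genes, 3 higher of 12 chromatin replication genes, 1 higher of 12 nucleotide supply genes, which is near the share of all genes, and 0 of 18 G2/M genes. Orc2 stood at 45.1, 49.3 and 52.8 CPM with LPS alone and at 108, 91.5 and 99.6 CPM with antibody, without overlap, a log2 change of 1.02 (adjusted p = 0.00122 by edgeR, SE 0.13). The other genes called higher in that list included Orc4 (0.56) and Mtbp (0.52), and Pold4 was lower, a log2 change of -1.08 (adjusted p = 0.00335 by edgeR, SE 0.20). The number of replisome and origin genes called higher was 1 (Orc2) without LPS library 1, 3 without LPS library 2 and 10 without LPS library 3, and Orc2 and Pold4 were called whichever library was left out. Asf1a, Nasp and Hat1 were called higher by 0.67, 0.59 and 0.61, of which Asf1a alone was called without LPS library 1, LPS library 2 or antibody library 3. Among the regulators, E2f4 (0.72), Ccne1 (1.15) and Ccnd2 (1.01) were called higher and the inhibitor gene Cdkn2c lower (-1.07). Of these E2f4 was called whichever library was left out, and Cdkn2c was not called when any one of the LPS libraries or antibody libraries 1 and 2 was left out. The antibody effect differed between the times for Orc2, by 1.20 (adjusted p = 0.00831 by edgeR, SE 0.18), and Pold4, by -1.33 (adjusted p = 0.0142 by edgeR, SE 0.28), as it did for Orc1, although Pold4 was not called without LPS library 1 at 72 h. Mki67 and Top2a had log2 differences of -0.12 and -0.15 at 72 h and were not called.

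In the remaining comparisons the counts of these lists moved with single libraries. With LPS and antibody at 24 h against PBS, where 11.7% of all genes were called higher, 10 of 33 replisome and origin genes, 3 of 12 nucleotide supply genes, 4 of 12 chromatin replication genes, 6 of 27 regulators and 4 of 18 checkpoint and repair genes were called higher and 0 lower. Without antibody library 2 these counts were 4, 0, 2, 2 and 1, without PBS library 2 they were 5, 1, 3, 3 and 2, and without antibody library 3 they were 6, 1, 2, 4 and 2. The replisome and origin genes had 6 without PBS library 3 or 4, and the regulators 3 without PBS library 3 or 5. Between 24 h and 72 h of LPS alone, where 16.4% of all genes were called lower and 14.7% higher, 9, 4, 5, 5 and 4 genes of the same lists were called lower. Without LPS library 1 at 72 h the counts were 4, 4, 4, 5 and 2, and the checkpoint and repair genes had 7 without LPS library 3 at 72 h. Called higher were 1 replisome gene (Pold4, 1.17) and 5 regulators, the latter with 1 call without LPS library 3 at 24 h and 3 without LPS library 1 at 24 h or LPS library 1, 2 or 3 at 72 h. Against PBS, LPS with antibody at 72 h gave 5 replisome and origin genes, 3 chromatin replication genes, 2 regulators and 4 checkpoint and repair genes called higher, where 6.81% of all genes were, and 1 regulator lower. Without antibody library 3 those counts were 3, 0, 1 and 0, and without antibody library 2 the regulators had 5. The checkpoint and repair genes had 1 or 2 without PBS library 2, 3, 4 or 5 or antibody library 1. Orc2 was among the genes called higher, with a log2 change of 0.79 (adjusted p = 0.00311 by edgeR, SE 0.11). In LPS at 72 h against PBS, in the antibody effect at 24 h and in antibody at 72 h against 24 h, 0 genes of these lists were called (edgeR). With all libraries in the fit, G2/M genes gave 0 of 18 calls in each comparison except LPS at 24 h against PBS.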

How the data were processed

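RNA abundance was taken from 1 table of raw counts that the authors deposited, which held reads per gene for 35321 symbols and 17 libraries. All 17 columns matched a label, and 13321 genes were at 0 in every library. The submitters' processing notes name HISAT2 2.2.0, Subread, featureCounts 2.1.1, R 4.3.2, DESeq2 and the build GRCm38. The annotation, the use of strand and the treatment of reads that match several genes are not given in the sources used here, so counts of overlapping genes are uncertain. Doses of LPS and antibody are not stated here because the design text and the sample labels give them in different units.

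The 43 genes, their roles, the lists of other genes and the tests were chosen with earlier results of these data known. Genes to be named were set by a rule: the called genes of a comparison, or beyond 10 the 3 highest and 3 lowest changes, and values per library for the genes with the largest change in each role with LPS at 24 h or with antibody at 72 h, plus Pcna, Mcm2 and E2f1. In each other list up to 4 called genes with the smallest p-values could be named, and always Mki67, Top2a and Ccna2.

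The analysis used edgeR 4.0.16 under R 4.3.3. The function filterByExpr, with its default minimum count of 10 and total of 15, left 14920 genes with 99.9% of the counts. Libraries were scaled by TMM, and the quasi-likelihood test was applied to 9 comparisons in 1 fit of 5 group means to all 17 libraries. Benjamini-Hochberg adjustment ran over all 14920 genes within a comparison, and genes below 0.05 were called. Standard errors are the absolute log2 change divided by the square root of F. CPM are counts per 1000000 of the scaled library total, and log2 CPM used a prior count of 2. The depth of 10516722 to 16006001 counts gave at least 140 counts for each of the 43 genes in each library, where the counting error of the lowest count is 8.45% and is part of the spread between libraries. The script was tested on simulated counts with known changes. Exon lengths and overlaps come from GENCODE M21 (GRCm38), and promoter windows from RefSeq (GRCm38.p6).

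The titles give the same replicate numbers in each group. Deviations of same-numbered libraries from their group means had correlations of 0.19, 0.19 and 0.16 for LPS at 24 h and PBS, all above 0.1, so that comparison was also read with the replicate number as a block. The numbers did not meet that condition in the other comparisons. The alternatives were DESeq2's size factors, upper-quartile factors, no filter, a stricter filter, DESeq2 1.42.0, limma 3.58.1 voom with quality weights, a fit of the compared groups only, the replicate block and leaving out each library. Fits of libraries numbered 1 to 3 without a block, and without both 24 h libraries numbered 1, were added after seeing the data.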

Additional observations from a re-analysis of the deposited data

Results flagged for a closer look

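Within the PBS group, 5 of the 43 genes had a library whose distance to the nearest other library took more of the whole range than chance allows in about 1 of 20 groups of 5 (0.71 of the range). Prim1, a primase subunit, had a gap of 0.929 of its range, with PBS library 5 at 79.0 CPM. Pole had a gap of 0.810, with PBS library 5 at 183 CPM, and Rfc1 one of 0.831, with PBS library 5 at 183.5 CPM. Dtl had a gap of 0.812, with PBS library 5 at 137 CPM. Chaf1a had a gap of 0.732, with PBS library 4 at 172 CPM. In each case the library stood above the other 4. The cut was applied to each of the 43 genes, so some gaps of this size can arise by chance. The genes share the same libraries, so the gaps are not independent of each other. Of these genes only Chaf1a was called with LPS at 24 h.

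The effect of the antibody on Orc1 differed between the times. The log2 change with against without antibody was 1.29 higher at 72 h than at 24 h (SE 0.21, edgeR interaction test, adjusted p = 0.00831), and it was called in all 12 fits that left out 1 library and under all 9 other alternatives run for it, with adjusted p from 3.25e-06 to 0.0485.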

How the results depend on the processing

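Leaving out 1 library at a time gave 18 to 30 of the 43 genes called for LPS at 24 h against PBS, 7 to 20 for LPS with antibody at 24 h, 0 to 0 for LPS at 72 h, 1 to 8 for LPS with antibody at 72 h, 0 to 0 for the antibody effect at 24 h, 1 to 5 at 72 h, 8 to 24 for 72 h against 24 h of LPS, 0 to 0 for the same with antibody, and 1 to 3 for the difference between the antibody effects. For LPS at 24 h against PBS the other alternatives gave 19 to 32 called genes, all higher. LPS with antibody at 24 h gave 9 with upper-quartile factors, 11 with the stricter filter and 8 with libraries numbered 1 to 3 only. LPS with antibody at 72 h against PBS gave 3 with upper-quartile factors, 3 with the stricter filter, 3 in a fit of the compared groups and 0 with libraries numbered 1 to 3 only. The antibody effect at 72 h gave 2 with upper-quartile factors, 7 with DESeq2, 9 with limma and 2 in a fit of the compared groups. LPS at 72 h against 24 h gave 11 with upper-quartile factors, 11 with the stricter filter, 11 in a fit of the compared groups and 9 without the 24 h libraries numbered 1. LPS at 72 h against PBS gave 2 with limma. The difference between the antibody effects gave 2 with the stricter filter, 4 with DESeq2 and 3 with limma. The stricter filter tested 7460 genes, and the causes of the other changes were not tested. With the replicate block, counts were 26 for LPS at 24 h, 0 for LPS with antibody at 24 h, 0 for LPS with antibody at 72 h, 1 for the antibody effect at 72 h, 4 for 72 h against 24 h and 1 for the difference between the effects. Outside LPS at 24 h against PBS, same-numbered libraries did not all have correlations above 0.1, but some were higher than there. For libraries 1, 2 and 3 they were 0.72, -0.02 and 0.70 in LPS with antibody at 72 h against 24 h. In the antibody effect at 72 h they were 0.27, 0.01 and 0.32. Whether a number marks a shared batch is not stated by the labels. Every library was closest to its own number in LPS with antibody at 72 h against PBS (6 of 6), and 0 of 6 were in the antibody effect at 24 h. With upper-quartile factors the median of all genes shifted on the log2 scale from -0.03 to -0.16 (LPS at 24 h) and from 0.02 to 0.13 (72 h against 24 h), and at 24 h 2030 of 5520 called genes were then higher, against 2849 of 5616 with TMM. No called gene changed sign under any alternative run. Depth limits the genes with low counts most: the lowest, 140 for Orc1, has a counting error of 8.45%.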
